A study of Mus musculus with 12 samples.

Results

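Liver mRNAs of 10 enzymes of bile acid synthesis are described here: *Cyp7a1*, *Cyp8b1*, *Cyp27a1*, *Cyp7b1*, *Cyp2c70*, *Hsd3b7*, *Amacr*, *Acox2*, *Slc27a5* and *Baat*. They were chosen by name from the known pathway, with earlier results of these data known. All 10 were found among the 54532 genes of the table and were tested. The livers came from 12 male C57BL/6J mice whose diets were given from 5 weeks of age for 26 weeks, 3 mice in each of 4 groups. ND-fed mice received a normal diet and control mice a high-fat diet, whereas HYA-treated and LA-treated mice received the same high-fat diet with 1% HYA or 1% LA, so that the 3 groups other than ND shared the high-fat diet. LA is linoleic acid, and HYA is its product in gut lactic acid bacteria, which hydrate a double bond of LA to give a hydroxy fatty acid. The normal and the high-fat diet were different commercial diets, so that fat content cannot be told apart from their other ingredients, and the mice are intact wild-type animals with no engineered allele. Mice of a group were separate animals, and the p-values measure the spread between them.

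Bile acids are made from cholesterol in hepatocytes. In the classic pathway the rate-limiting 7α-hydroxylase CYP7A1 acts first and the 12α-hydroxylase CYP8B1 directs intermediates toward cholic acid, whereas the alternative pathway begins with the mitochondrial sterol 27-hydroxylase CYP27A1 followed by the oxysterol 7α-hydroxylase CYP7B1. Mice also convert chenodeoxycholic acid to muricholic acids through CYP2C70. HSD3B7 acts on the sterol ring, AMACR and ACOX2 serve the shortening of the side chain in peroxisomes, SLC27A5 joins bile acids to coenzyme A, and BAAT couples them to taurine or glycine. Bile acids that return to the liver lower the transcription of *Cyp7a1* and *Cyp8b1* through the receptor FXR (*Nr1h4*) and through signals from the intestine.

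For *Cyp8b1*, the member that rose on the high-fat diet, and *Cyp2c70*, which fell, the bases before the transcription start are shown. They were taken from RefSeq (GRCm38.p6), both on the minus strand, and are written 5′ to 3′ toward the start. RefSeq windows were at hand for 5 of the 10 members, and the other members of that set were *Cyp27a1*, *Hsd3b7* and *Acox2*. Capitals mark matches, on either strand, to 1 of 8 motifs that were searched. AGGTCA is a nuclear receptor element and is contained in CAAGGTCA, which like CAAGGCCA is of the LRH-1 type. CAAAGTCCA is of the HNF4A type, and TTATGTAA and TTACGTAA are D-boxes. The E-box of the clock factors was searched as CACGTG. The last of the motifs was the TATA box in the form of TATAAA.
Cyp8b1, chr9:121916306-121916555: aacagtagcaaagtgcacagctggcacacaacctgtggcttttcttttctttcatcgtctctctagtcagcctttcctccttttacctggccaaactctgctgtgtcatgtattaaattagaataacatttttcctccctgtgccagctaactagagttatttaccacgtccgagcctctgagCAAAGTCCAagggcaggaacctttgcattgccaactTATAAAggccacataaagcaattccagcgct
Cyp2c70, chr19:40187334-40187536: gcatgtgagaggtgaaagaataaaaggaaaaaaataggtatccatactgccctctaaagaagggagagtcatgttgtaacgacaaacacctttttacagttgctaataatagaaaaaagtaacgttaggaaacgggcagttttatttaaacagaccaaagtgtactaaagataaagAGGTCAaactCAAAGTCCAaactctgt
The last 47 bases before the RefSeq start of *Cyp2c70* lie inside the deposited gene model and are not printed. Both sequences hold CAAAGTCCA, at bases -67 to -59 in *Cyp8b1* and -64 to -56 in *Cyp2c70*, counted from the base before the start as -1. That motif was present in 0.475% of the 32851 windows of 300 bases in the set, which run from 250 bases before to 50 after a start. TATAAA followed at -31 to -26 in *Cyp8b1* and, on the other strand, at -29 to -24 in the unprinted stretch of *Cyp2c70*, and 13.6% of windows held it. AGGTCA, which *Cyp2c70* also had, was in 16.3% of windows. The remaining shares were 1.56% for CAAGGTCA, 2.4% for CAAGGCCA, 0.938% for TTATGTAA, 0.119% for TTACGTAA and 7.15% for CACGTG. None of the 8 motifs was in the windows of *Cyp27a1*, *Hsd3b7* or *Acox2*. These are matches of letters and not measured binding sites.

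Levels are given as FPKM (fragment numbers divided by gene length and library size) and were compared between genes on that scale. Each mouse had 17169064 to 25220880 fragments on genes, and mice of the same group correlated at 0.983 to 0.990 across the 11083 genes tested. Correlations of single libraries and between groups are not given here, so that range alone does not show whether a library stood apart. The members had 142 to 20577 fragments in a mouse, fewest for *Hsd3b7*. *Hsd3b7* overlaps the antisense gene *9430064I24Rik*, at a mean of 1.46 FPKM, and reads of the pair cannot be told apart without strand. *Cyp2c70* belongs to a family of similar genes that may share reads. Among markers of cell types, all 9 hepatocyte genes in the table were above 1 FPKM in every group, whereas the 6 lymphocyte and neutrophil genes and 4 of the 7 bile duct genes had means over all 12 mice under 1 FPKM. In whole liver, fewer cells of a type and less RNA per cell cannot be told apart.

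In ND-fed livers *Slc27a5* was the most abundant member, at 440.7 FPKM ± 11.3 (SD, n = 3). *Cyp2c70* followed at 276 ± 40.4 and *Cyp27a1* at 273 ± 21.2, and the ranges of these neighbours overlapped. *Baat* was at 161 ± 9.8, *Cyp8b1* at 125 ± 4.52, *Cyp7b1* at 101 ± 18.5, *Acox2* at 77.1 ± 2.55 and *Amacr* at 63.6 ± 2.43. The classic pathway's first enzyme, *Cyp7a1*, was at rank 9 with 21.4 ± 5.93 FPKM, and *Hsd3b7* was lowest at 4.88 ± 0.645. From *Baat* down to *Hsd3b7* no range overlapped that of the next gene in the order. In control livers *Cyp8b1* was at rank 2, at 213 ± 33.4 FPKM, with a range that overlapped that of *Slc27a5* at 259 ± 38.4. *Cyp2c70*, at rank 2 in ND-fed livers, was at rank 5, at 61.4 ± 11.9 FPKM, overlapping *Acox2*, which in turn overlapped *Amacr*. *Cyp7b1* and *Cyp7a1* also overlapped in control livers. In HYA-treated livers *Cyp8b1* overlapped *Cyp27a1*, and *Acox2* overlapped *Amacr*. The order of means was the same in control, HYA-treated and LA-treated livers.

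**Figure D1:**
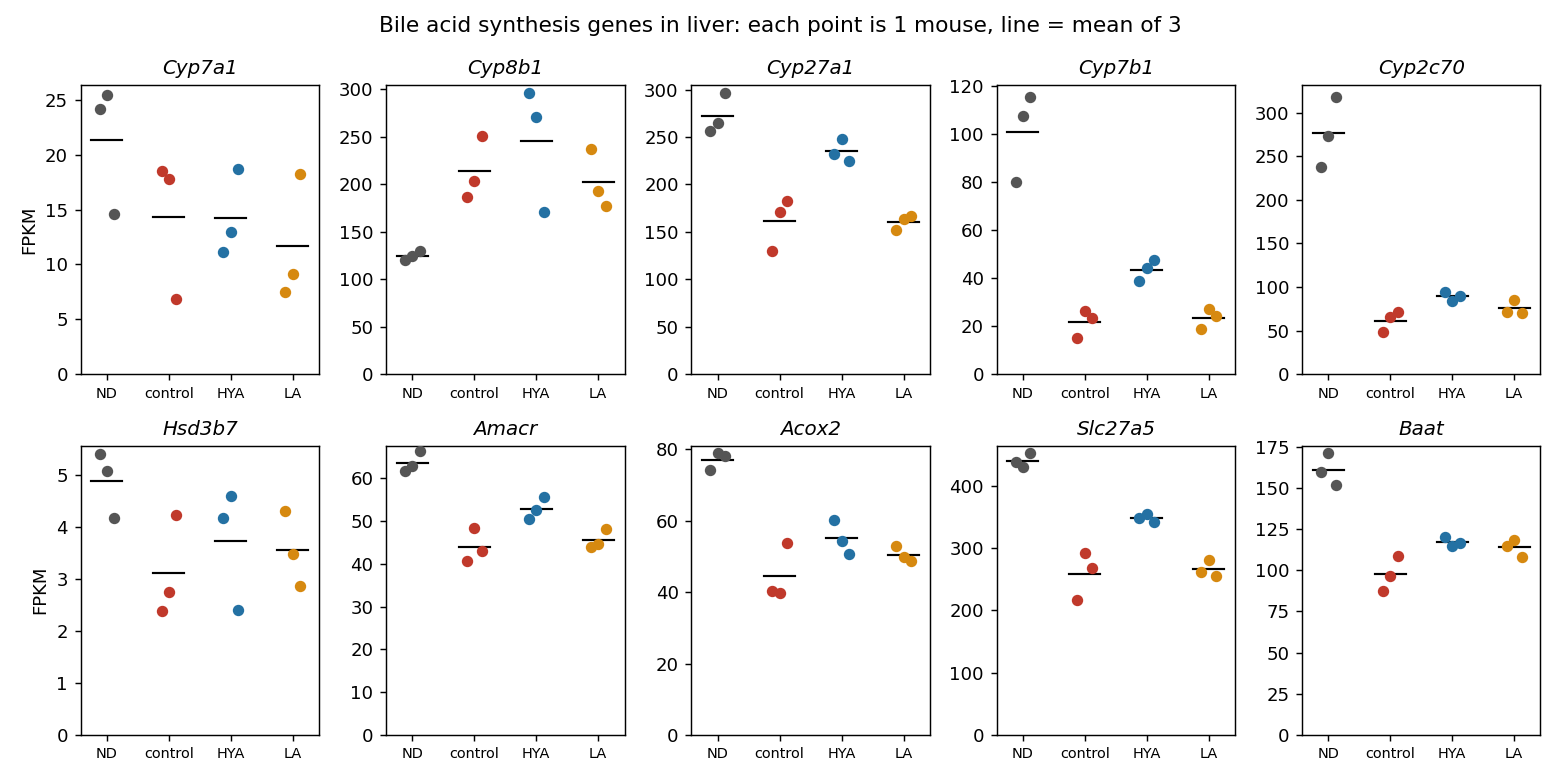
Level of each of the 10 members in FPKM (vertical axes, each from 0) in the 4 groups, where a point is 1 mouse and a line is the mean of 3 mice. ND-fed mice lie above control mice for *Cyp27a1*, *Cyp7b1*, *Cyp2c70*, *Amacr*, *Acox2*, *Slc27a5* and *Baat*, and below them for *Cyp8b1*.

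The comparison of control with ND-fed mice asks what the high-fat diet did to the pathway. Of the 10 members 7 fell and 1 rose. *Cyp7b1* and *Cyp2c70* fell most, to 0.213 and 0.222 of their ND level, and *Cyp8b1* was the member that rose, by 1.71-fold. *Cyp27a1*, *Slc27a5*, *Baat*, *Acox2* and *Amacr* fell to between 0.578 and 0.692 of their ND level. A member was called higher or lower at a Benjamini-Hochberg adjusted p under 0.05 over all 11083 genes tested, from limma on log2(FPKM + 1). On that scale the change of low genes is understated. Of all genes tested, 19.1% were called lower and 16.2% higher in this comparison. The median difference over the members was -0.74 on the log2 scale, beside -0.04 over all genes tested. Scaling each mouse to TPM, a fixed total per mouse, moved the median of all genes to 0.17 and the share of called genes that were higher from 45.9% to 83.8%, whereas 1 member higher and 7 lower were called as before. Of all genes tested, 3792 were called higher and 732 lower on the TPM scale. Limma-voom on recovered fragments, which called 29.3% of its genes higher and 6.74% lower, gave the members the same split. Relative to the median of all genes the members were at -0.70 on the FPKM and -0.68 on the TPM scale.

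Both enzymes of the alternative pathway were called lower, *Cyp7b1* with the larger fall. That of *Cyp27a1* was near those of *Slc27a5* and *Baat* (-0.77 and -0.72), and differences between members were not tested. *Cyp7b1* was at 80.1, 107 and 115 FPKM in ND-fed mice and at 14.9, 26.3 and 23.3 in control mice. Every control mouse lay far below every ND-fed mouse. The difference was -2.20 on the log2 scale (SE 0.20, limma adjusted p = 2.7e-05). For this and the other members, the share of all genes without such overlap was not counted. *Cyp27a1* was at 256, 265 and 297 FPKM in ND-fed mice and at 129.8, 171 and 183 in control mice. The groups did not overlap, and control mouse 1 was the lowest. Its difference was -0.77 (SE 0.11, limma adjusted p = 0.000485).

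*Cyp2c70*, the enzyme of muricholic acid formation in mice, was at 238, 273 and 318 FPKM in ND-fed mice and at 48.1, 65.1 and 71.1 in control mice. The groups were far apart relative to the spread within them. The difference was -2.16 (SE 0.14, limma adjusted p = 3.16e-06). *Cyp7b1* and *Cyp2c70* were the members whose fall was larger than 1 on the log2 scale, and 1.63% of all genes tested fell by that much and were called.

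In the classic pathway *Cyp8b1* rose and *Cyp7a1* was not called, and the difference between the changes of these genes was not tested. *Cyp8b1* was at 120.3, 125 and 129 FPKM in ND-fed mice and at 186, 203 and 251 in control mice. The lowest control mouse was above the highest ND-fed mouse. The difference was 0.76 (SE 0.19, limma adjusted p = 0.0102). *Cyp7a1* was at 24.1, 25.4 and 14.6 FPKM in ND-fed mice and at 18.5, 17.8 and 6.82 in control mice. The groups overlapped, and 1 mouse of each group was well below the other two. The difference of -0.62 had a 95% interval from -1.49 to 0.25 and was not called (limma adjusted p = 0.253), so that no change and a fall as large as that of *Cyp27a1* both lie inside it.

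The later steps fell by similar amounts. *Slc27a5*, the bile acid coenzyme A ligase, was at 439, 430.4 and 453 FPKM in ND-fed mice and at 217, 292 and 268 in control mice, a difference of -0.77 (SE 0.09, limma adjusted p = 0.000129). *Baat*, the conjugating enzyme, was at 160.1, 172 and 152 FPKM in ND-fed mice and at 87.7, 96.5 and 109 in control mice, a difference of -0.72 (SE 0.08, limma adjusted p = 7.05e-05). Neither gene overlapped between the groups. *Acox2*, the branched-chain acyl-CoA oxidase of peroxisomes, was at 74.3, 79.1 and 78.1 FPKM in ND-fed mice and at 40.3, 39.8 and 53.8 in control mice, a difference of -0.79 (SE 0.11, limma adjusted p = 0.000263). *Amacr*, the racemase that acts before it, was at 61.7, 62.8 and 66.4 FPKM against 40.7, 48.5 and 43.0, a difference of -0.52 (SE 0.07, limma adjusted p = 0.000265). Here too every control mouse was below every ND-fed mouse. *Hsd3b7* was at 5.41, 5.07 and 4.16 FPKM in ND-fed mice and at 2.38, 2.74 and 4.22 in control mice. Its groups overlapped through control mouse 3, and the difference of -0.53 (SE 0.21) was not called (limma adjusted p = 0.0681). It was called in 1 of 15 alternative fits, the one without control mouse 3 (-0.72, limma adjusted p = 0.0233). Without control mouse 1 it was -0.41 and not called (limma adjusted p = 0.218).

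**Figure D2:**
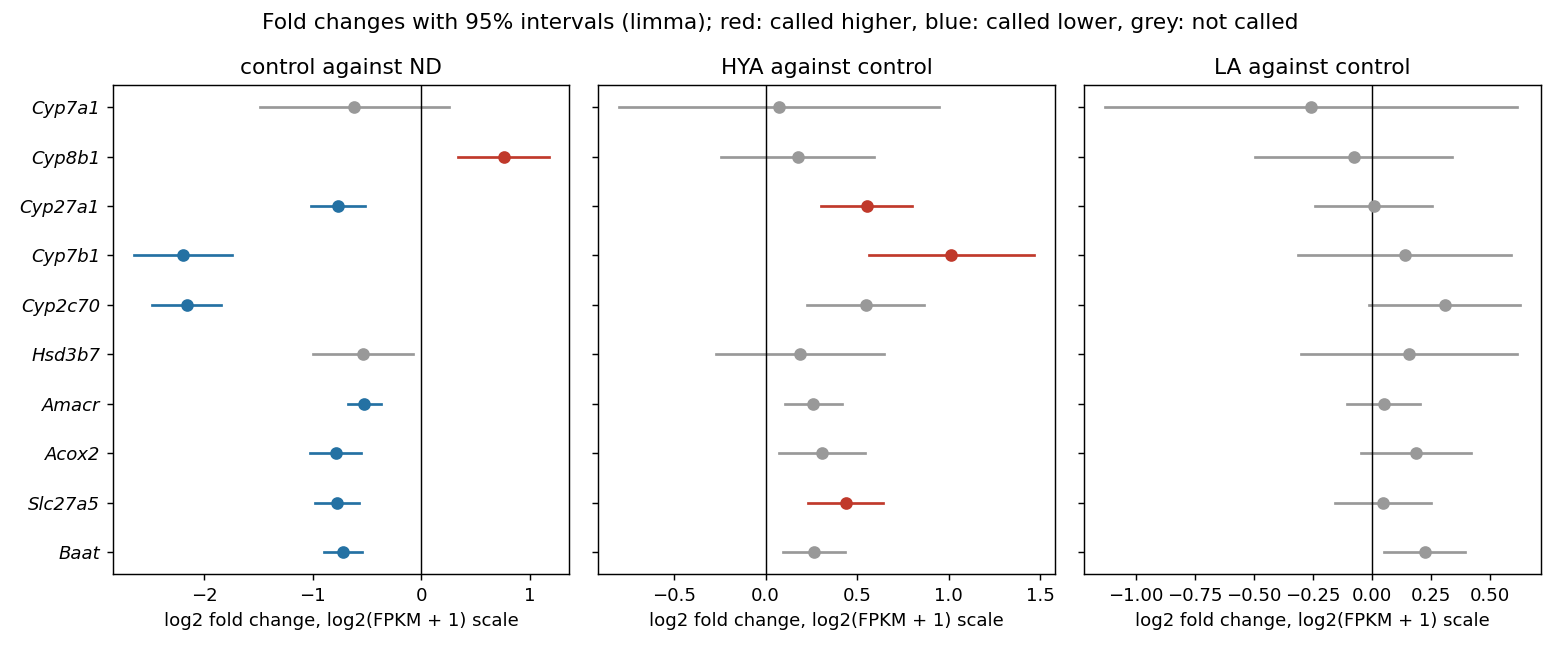
Difference of each member on the log2(FPKM + 1) scale (horizontal axis, each panel with its own range) for the high-fat diet (control against ND) and for HYA and LA against control, with 95% intervals from limma, 3 mice per group. Red points were called higher, blue points lower and grey points not called; 8 members were called in the first panel, 3 in the second and 0 in the third.

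Since genes of 1 mouse share its library, ratios between them do not depend on library scaling, and they are given as a description with no test. *Cyp7b1* was at 0.666 to 0.893 of the *Cyp8b1* level in ND-fed mice and at 0.0801 to 0.130 in control mice. The ratio was 0.132 to 0.277 with HYA and 0.0802 to 0.141 with LA, so that each HYA-treated mouse was above each control mouse, narrowly, and LA-treated mice overlapped both. *Cyp2c70* exceeded *Cyp8b1* in each ND-fed mouse, with ratios of 1.98 to 2.46, and was below it in each mouse on the high-fat diet. The ratio of *Cyp2c70* to *Cyp8b1* was 0.258 to 0.321 in controls, 0.311 to 0.522 with HYA and 0.304 to 0.441 with LA. *Cyp8b1* exceeded *Cyp7a1* in all 12 mice, by 4.98, 4.90 and 8.87 times in ND-fed mice, 10.1 to 36.8 times in controls, 9.11 to 26.7 times with HYA and 9.70 to 31.4 times with LA. ND-fed mouse 3 lay nearer to the lowest mice on the high-fat diet than to the other ND-fed mice.

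**Figure D3:**
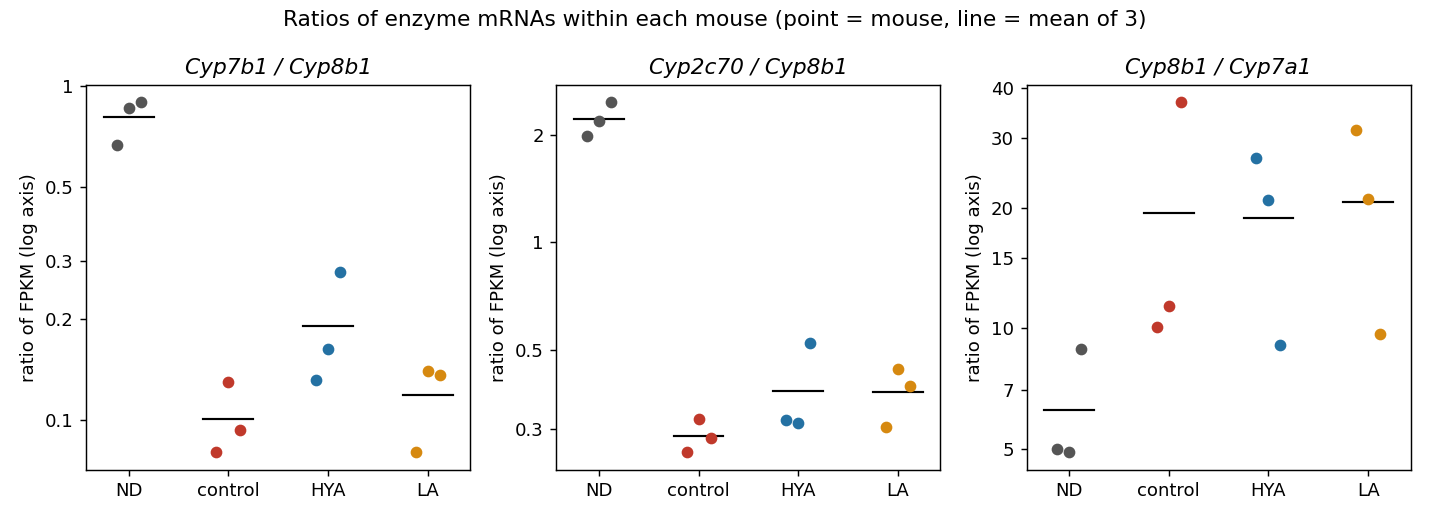
Ratios of FPKM between members within each mouse (log axes) for *Cyp7b1* to *Cyp8b1*, *Cyp2c70* to *Cyp8b1* and *Cyp8b1* to *Cyp7a1*, where a point is 1 mouse and a line is the mean of 3 mice. ND-fed mice are far above all mice on the high-fat diet in the left and middle panels, at 0.666 to 0.893 and 1.98 to 2.46. In the right panel ND-fed mouse 3, at 8.87, lies next to HYA-treated mouse 3 at 9.11.

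HYA-treated mice were compared with control mice to see what 1% HYA did on the high-fat diet. *Cyp7b1*, *Cyp27a1* and *Slc27a5* were called higher, by 2.02-fold, 1.46-fold and 1.35-fold, and no member was called lower. Of all genes tested 1.57% were called higher and 1.23% lower. The estimate was above 0 for all 10 members, with a median of 0.29 beside 0.02 over all genes. On the TPM scale the median of all genes was -0.09 and that of the members 0.26 above it. The share of called genes that were higher went from 56.1% to 19.5%, with 97 of all genes tested called higher and 400 lower. On that scale 3 members were again called higher and 0 lower, and the estimate of *Cyp7a1* was then -0.04. 7 members had an unadjusted p under 0.05, as did 18.5% of all genes. Limma-voom called the 3 members higher as well, beside 1.06% of its genes higher and 4.08% lower.

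*Cyp7b1* was at 39.0, 44.1 and 47.4 FPKM in HYA-treated mice, above each of the 3 control mice and below each ND-fed mouse. Its difference from control was 1.02 on the log2 scale (SE 0.20, limma adjusted p = 0.0348). *Cyp27a1* was at 233, 248 and 224 FPKM, above the highest control mouse, with a difference of 0.55 (SE 0.11, limma adjusted p = 0.0357). *Slc27a5* was at 349, 355 and 341 FPKM, also without overlap, with a difference of 0.44 (SE 0.09, limma adjusted p = 0.0389). These 3 calls were close to the threshold. None of them was made without control mouse 1, which was the lowest control mouse for each gene, nor without any 1 of the HYA-treated mice, nor without the filter on low values, nor with only the 2 groups in the fit. Their adjusted p then lay between 0.061 and 0.168, and the differences stayed above 0, from 0.31 to 1.09. With control mouse 3 left out, *Cyp27a1* remained called and *Cyp7b1* and *Slc27a5* did not (limma adjusted p = 0.0674 and 0.0755), while *Acox2* was called at 0.45 (limma adjusted p = 0.0355). Without control mouse 2 *Amacr* was called as well, at 0.33 (limma adjusted p = 0.0188).

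*Cyp2c70* was at 94.0, 84.2 and 89.2 FPKM in HYA-treated mice, above all control mice, and its difference of 0.55 was not called (limma adjusted p = 0.0709). *Amacr*, at 50.6, 52.5 and 55.7 FPKM, and *Baat*, at 120.1, 115 and 117 FPKM, likewise did not overlap control mice. Their differences were 0.26 and 0.26, with limma adjusted p of 0.0736 and 0.0972. How many of all genes were without such overlap was not counted, and 18.5% of them had an unadjusted limma p under 0.05. *Acox2*, at 60.2, 54.4 and 50.8 FPKM, overlapped control mice through control mouse 3 (difference 0.31, limma adjusted p = 0.146). *Cyp8b1* was at 296, 271 and 171 FPKM and *Cyp7a1* at 11.1, 12.95 and 18.8 FPKM in HYA-treated mice. In both genes mouse 3 stood apart from the other two, in opposite directions. The difference from control was 0.18 for *Cyp8b1* (95% interval -0.24 to 0.59) and 0.07 for *Cyp7a1* (95% interval -0.80 to 0.94). *Hsd3b7*, at 4.17, 4.58 and 2.40 FPKM, overlapped control mice as well (difference 0.19, limma adjusted p = 0.695).

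Compared with ND-fed mice, HYA-treated mice kept 6 members lower and 1 higher, among 7.85% lower and 8.72% higher of all genes. *Cyp2c70* was -1.61 and *Cyp7b1* -1.18 from ND on the log2 scale (limma adjusted p = 4.87e-05 and 0.00314). *Acox2*, *Baat*, *Slc27a5* and *Amacr* were -0.48, -0.46, -0.34 and -0.26 from ND and were also called. The call of *Slc27a5* was lost without any 1 of these 6 mice (limma adjusted p = 0.0659 to 0.0807), and that of *Amacr* without ND-fed mouse 2 or 3 or HYA-treated mouse 1 or 2 (0.0652 to 0.0941). *Cyp8b1* was 0.93 above ND (limma adjusted p = 0.00709). The difference of *Cyp27a1* was -0.21 with a 95% interval of -0.46 to 0.04, which was not called, although its ranges did not overlap (limma adjusted p = 0.223). On the TPM scale, where the share of called genes that were higher went from 52.6% to 79.8%, 1 member was called higher and 4 lower. The comparisons HYA against control and HYA against ND share the HYA-treated mice.

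LA is the parent compound of HYA and was given at the same dose for the same time. No member was called in LA-treated against control mice by limma, and 0% of all genes were called higher or lower. All 10 adjusted p were 0.999, 1 member had an unadjusted p under 0.05, as did 2.65% of all genes, and limma-voom on the recovered fragments also called 0 members. *Cyp7b1* was at 19.0, 27.1 and 24.2 FPKM, *Cyp27a1* at 152, 164 and 166, and *Slc27a5* at 262, 281 and 255, all inside or overlapping the control range. Their differences from control were 0.14 (95% interval -0.31 to 0.59), 0.01 (-0.24 to 0.26) and 0.05 (-0.16 to 0.25). The gene with the low unadjusted p was *Baat*, at 115, 119 and 108 FPKM, with a difference of 0.22 (95% interval 0.05 to 0.40). *Cyp2c70* was at 71.8, 84.8 and 70.0 FPKM (difference 0.31, 95% interval -0.01 to 0.63). *Cyp7a1* was at 7.53, 9.17 and 18.3 FPKM and *Cyp8b1* at 237, 193 and 177. Here again mouse 3 was highest for *Cyp7a1* and lowest for *Cyp8b1*.

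Against ND, LA-treated mice had the same split as control mice, with 7 members lower and 1 higher, beside 16.6% and 14.4% of all genes. *Cyp7b1* was -2.06 and *Cyp2c70* -1.85 from ND (limma adjusted p = 4.9e-05 and 1.05e-05), and *Cyp8b1* was 0.68 above it (limma adjusted p = 0.0189). *Cyp8b1* was no longer called without ND-fed mouse 1 or 2 or LA-treated mouse 1 (limma adjusted p = 0.0505 to 0.0749). *Cyp7a1*, at -0.88, was not called with all mice (limma adjusted p = 0.118). Without LA-treated mouse 3 it was -1.23 and called (limma adjusted p = 0.0446). Without any other 1 of these mice it was not called (limma adjusted p = 0.0856 to 0.323). The share of called genes that were higher was 46.4% and, on the TPM scale, 85.4%.

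The direct test of HYA against LA, 2 fatty acids that differ by a hydroxyl group in place of a double bond, covers all 10 members as 1 pair of compounds at 1 dose. No member passed, beside 0.235% of all genes called higher and 0.253% lower with HYA. The higher share of the called genes was 48.1% and, on the TPM scale, 18.8%. 4 members had an unadjusted p under 0.05 in limma, as did 17.2% of all genes. Limma-voom called 2 members higher and 0 lower, beside 0.502% of its genes higher and 1.64% lower. The difference of *Cyp27a1* was 0.55 (95% interval 0.30 to 0.80, limma adjusted p = 0.062), that of *Cyp7b1* 0.88 (0.42 to 1.33, limma adjusted p = 0.0726) and that of *Slc27a5* 0.39 (0.19 to 0.59, limma adjusted p = 0.0728). For these 3 genes, and for *Amacr* (0.21, limma adjusted p = 0.154), each HYA-treated mouse was above each LA-treated mouse. The share of all genes without such overlap was not counted, here or in the other comparisons. *Cyp27a1* and *Cyp7b1* were the members called by voom, with adjusted p of 0.0339 and 0.0404. The intervals are not adjusted for the number of genes tested. For *Baat* the difference was 0.04 (95% interval -0.13 to 0.21) and for *Acox2* 0.12 (-0.11 to 0.35).

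*Cyp7a1* varied more between mice of 1 group than most members. Its highest mouse exceeded its lowest by 1.75 times in the ND group, 2.71 times in controls, 1.69 times with HYA and 2.43 times with LA, while *Slc27a5* stayed within 1.35 times in every group. *Cyp7a1* is known to follow the daily rhythm, and the sources used here do not give the hour at which livers were taken. Clock genes were therefore set beside it after the mean of each group had been subtracted from log2(FPKM + 1). *Arntl*, the activator of the clock that is also called BMAL1, was at 1.98, 1.73 and 2.04 FPKM in ND-fed mice and at 0.210, 0.174 and 3.23 in control mice. The HYA group had 1.80, 0.946 and 0.156 FPKM and the LA group 2.78, 2.06 and 0.316. Mouse 3 thus stood apart from the other two in the 3 high-fat groups, upward in control and downward in the others. *Arntl* was not called in any of the 6 comparisons by limma. Of the 16 clock genes tested, *Clock* and *Nr1d1* fell in control against ND (-0.73 and -0.55, limma adjusted p = 0.0145 and 0.0263), and *Nr1d1* fell in LA against ND (-0.61, limma adjusted p = 0.0174).

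Within groups, *Cyp7a1* was lower in mice with more *Arntl*. Over the 12 mice Pearson's r was -0.93 and Spearman's rho -0.90 (exact permutation within groups over 1296 orders, p = 0.00154 and 0.00231, adjusted over 32 relations 0.0246 and 0.0247). The value of 0.00154 is the smallest this enumeration gave. Without the 2 mice farthest from the median of *Arntl*, r was -0.87. *Cyp8b1* went the other way, with r = 0.81 and an adjusted exact permutation p of 0.0247, and r = 0.82 without those 2 mice. Of the 16 clock genes tested, 11 had an adjusted p of r under 0.05 with *Cyp7a1* and 9 with *Cyp8b1*. Clock genes follow each other, so these relations are not independent of one another. The share of all genes with such a relation was not counted. Outside the clock list, *Rabl6* reached r = 0.97 with *Cyp7a1* and *Dbi* r = 0.97 with *Cyp8b1*. *Cyp7a1* and *Cyp8b1* were themselves related at r = -0.75 within groups, a description without a test.

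**Figure D4:**
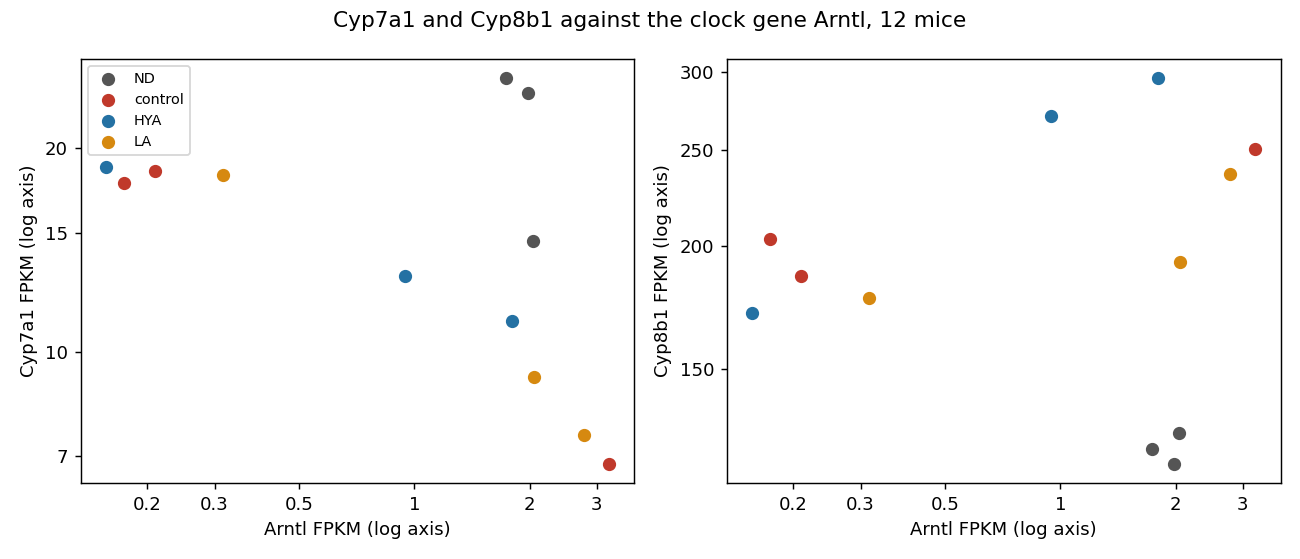
*Cyp7a1* (left) and *Cyp8b1* (right) in FPKM against the clock gene *Arntl* in FPKM (all axes logarithmic), where a point is 1 of the 12 mice, coloured by group. On the high-fat diet *Cyp7a1* is at 17.8 to 18.8 FPKM in mice with *Arntl* at 0.316 FPKM or less and at 6.82 to 12.95 in those with *Arntl* at 0.946 or more, and ND-fed mice have the lowest *Cyp8b1*, at 120.3 to 129 FPKM.

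The call for *Cyp7a1* changed when this variation entered the fit, which is not a separate test of *Cyp7a1*. *Arntl* had the strongest relation to *Cyp7a1* within groups among the 16 clock genes (r = -0.93), so a smaller SE followed from that choice. ND-fed mice spanned only 1.73 to 2.04 FPKM of *Arntl*, so the adjustment of the differences from ND rests mainly on mice on the high-fat diet. With *Arntl* as a covariate, an alternative chosen after the data had been seen, the difference of control from ND was -1.10 (SE 0.16, limma adjusted p = 0.000669) instead of -0.62. For HYA and LA against ND it was -1.01 and -1.04 (limma adjusted p = 0.00243 and 0.000626). With the first component of the 16 clock genes as covariate, which held 83.8% of their variance, the 3 differences were -0.96, -0.99 and -1.001 (limma adjusted p = 0.00575, 0.0117 and 0.00402). *Cyp7a1* differed by no more than 0.09 in HYA or LA against control or against each other under either covariate. For *Cyp8b1* the difference of control from ND became 0.95 with *Arntl* and 0.91 with the component, and it was called in both. In HYA against control, 7 and 5 members were called higher with the respective covariates, while the share of all genes called higher was 2.6% and 2.63%, above the 1.57% without a covariate. Whether the hour of sampling has a part in these values was not tested.

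Genes whose variation within groups was most like that of a member were listed for 4 members as a description over 12 mice. For *Cyp7a1* they were *Rabl6* (r = 0.97), *Mcm5* (0.97) and *Tulp4* (0.96), and for *Cyp8b1* *Dbi* (0.97), *Dcps* (0.94) and *Mreg* (0.94). *Cyp27a1* was most like *Slc22a28* (0.97), *Apoh* (0.97) and *Cyp4f14* (0.96), and *Cyp7b1* most like *Gpld1* (0.96), *Gcgr* (0.95) and *Rbp4* (0.94). Among the members, 31 of 45 pairs varied in the same direction within groups, with a median r of 0.38. The lowest r was -0.82, between *Cyp7a1* and *Acox2*, and the highest 0.88, between *Cyp8b1* and *Hsd3b7*. *Cyp7a1* was negatively related to 8 of the 9 other members. These points share libraries.

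Of 23 other genes that serve bile acid synthesis, 21 were tested. In control against ND 7 of these fell and 2 rose, beside 19.1% and 16.2% of all genes. *Cyp3a11*, a cytochrome P450 that hydroxylates bile acids, fell from 1006, 980.1 and 887 FPKM in ND-fed to 279, 246 and 277 in control mice (log2 difference -1.84, limma adjusted p = 1.32e-07). In HYA-treated mice it was at 257, 236 and 264 FPKM, within or next to the control range. The reductases of the sterol ring fell as well, *Akr1c6* by 0.80, *Akr1d1* by 0.74 and *Akr1c14* by 0.69 on the log2 scale. *Hsd17b4* and *Acaa1b*, which act in peroxisomal β-oxidation, rose by 0.24 and 0.31 (limma adjusted p = 0.00919 and 0.00968). The other 3 genes that fell were *Ebp*, *Hsd17b10* and *Fdx1*. In HYA against control 2 of the 21 rose and 0 fell, beside 1.57% and 1.23% of all genes, namely *Slc27a2*, a very-long-chain acyl-CoA synthetase (0.37, limma adjusted p = 0.0487), and *Hsd17b10* (0.37, limma adjusted p = 0.0443). The medians of this list were -0.14 and 0.24 in those comparisons. *Ch25h* and *Star* had means over all 12 mice under 1 FPKM and were not tested.

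Of the 30 regulators listed, 28 were tested, 7 fell and 2 rose in control against ND, beside 19.1% and 16.2% of all genes, with a list median of -0.14. *Hnf4a*, a nuclear receptor that drives hepatocyte genes, fell by 0.54 on the log2 scale, from 149 to 157 FPKM in ND-fed to 91.5 to 118 in control mice (limma adjusted p = 0.000531). *Igf1* fell by 0.70, *Fgfr4*, the liver receptor for the intestinal hormone FGF15, by 0.64, and *Nr5a2* (LRH-1), an activator of *Cyp7a1* and *Cyp8b1*, by 0.35. *Fgf21*, a hepatic hormone, rose by 2.72 (limma adjusted p = 4.82e-05) and *Lpin1* by 1.31. The next 2 regulators were singled out after their values had been seen. *Nr0b2* (SHP), a repressor induced by FXR, fell by 0.55 (limma adjusted p = 0.0236). Its groups overlapped through control mouse 3, at 34.5 FPKM beside 33.7 to 41.6 in ND-fed mice. *Nr1h4* was at 51.9 ± 2.73 FPKM in the ND group, 50.4 ± 5.91 in controls, 51.0 ± 4.45 with HYA and 49.9 ± 4.91 with LA (SD, n = 3 mice each). In HYA against control limma called 0 of the 28 regulators, with 5 at an unadjusted p under 0.05. *Vdr* and *Cux2* had means over all 12 mice under 1 FPKM and were not tested.

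The next list held transporters of bile acids and of lipids, of which 12 were tested. In control against ND 6 fell, 2 rose and 4 were not called, beside 19.1% of all genes lower and 16.2% higher. In HYA against control 3 rose and 9 were not called, beside 1.57% of all genes higher. The list medians were -0.64 and 0.25. *Slc10a1* (NTCP), the uptake carrier for conjugated bile acids, had 281, 289 and 289 FPKM in the ND group. It was at 131, 187 and 145 in controls and at 248, 269 and 282 with HYA. HYA-treated mice were above all control mice and 1 of them fell within the ND range. The difference was -0.90 in control against ND and 0.80 in HYA against control (limma adjusted p = 0.000247 and 0.0168). *Slco1a1*, another uptake carrier, had 67.6, 86.9 and 104 FPKM in the ND group. It was at 3.36, 17.5 and 10.5 in controls and at 36.6, 49.7 and 57.4 with HYA. Its differences were -3.14 and 2.30 (limma adjusted p = 0.000251 and 0.0271), and it followed the order of *Cyp7b1* with no overlap between these 3 groups. *Slco1b2* fell by 0.63 and was 0.49 higher with HYA than in control mice (limma adjusted p = 0.00164 and 0.0492). *Abcb11* (BSEP), the export pump, fell by 1.02 and *Atp8b1* by 0.71, while *Abcb4*, the phospholipid exporter, rose by 0.56. In HYA against LA *Slc10a1* was the transporter called (0.73, limma adjusted p = 0.0365). *Abcc4* and *Slc51a* had means over all 12 mice of 0.970 and 0.0122 FPKM and were not tested.

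**Figure D5:**
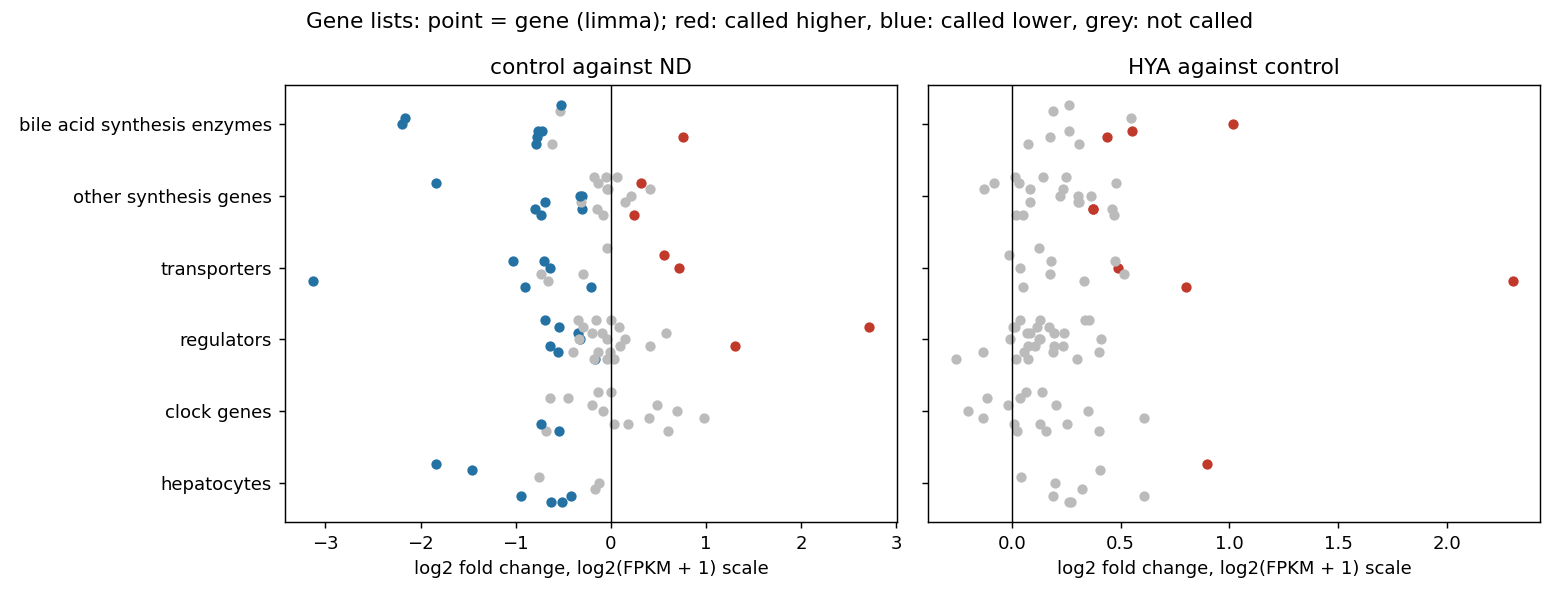
Difference of each tested gene on the log2(FPKM + 1) scale (horizontal axis, a range for each panel) for the members and 5 lists, in control against ND (left) and HYA against control (right). A point is 1 gene, red called higher, blue called lower and grey not called; on the left 7 of 10 members and 6 of 12 transporters are blue, and on the right 3 of 10 members and 3 of 12 transporters are red.

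Markers of cell types moved with the groups, and their part in the results for the members was not tested. Of 9 hepatocyte markers 6 fell in control against ND, with a median of -0.63, and 1 rose in HYA against control, with a median of 0.27. Their summed level was 51140 to 53890 FPKM in the ND group, 34750 to 40090 in controls, 44690 to 47050 with HYA and 37920 to 39530 with LA. Single markers differed widely in control against ND, from *Serpina1c* at -1.84 and *Cps1* at -1.46 to *Alb* at -0.51 and *Ttr* at -0.42 among those called. Of 8 stellate cell markers 5 rose in control against ND and 2 fell in HYA against control. Their sum was 34.0 to 44.5 FPKM in the ND group, 72.7 to 94.9 in controls, 59.0 to 72.9 with HYA and 78.8 to 95.03 with LA. Bile duct markers summed to 19.4 to 28.4, 78.8 to 173, 39.1 to 53.0 and 81.9 to 135 FPKM in the same order, of which *Spp1* was 16.0 to 24.3, 74.2 to 166, 35.7 to 50.2 and 77.3 to 128, and *Krt19*, a defining gene of these cells, had a mean of 0.837 FPKM over all 12 mice. Of 5 macrophage markers tested 2 rose and 1 fell in control against ND, with sums of 102 to 160.0 FPKM in the ND group, 167 to 168 in controls, 119 to 163 with HYA and 165 to 175 with LA. Of 6 endothelial markers 2 rose, and sums were 49.0 to 60.1 FPKM in ND-fed mice and 64.2 to 70.8 in the other groups together. Both enterocyte markers that could be tested rose in control against ND. *Fabp2* was at 59.5 to 75.6 FPKM in ND-fed and 156 to 183 in control mice, whereas *Fabp6*, a defining gene of the ileum, was listed at 0 in all 12 mice.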

How the data were processed

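Liver mRNA of 12 mice was analysed, 3 per diet group (ND, control, HYA, LA). The authors deposited FPKM for every gene and mouse in 1 table made from paired-end reads. The submitters' processing notes name fastp, HISAT2 2.0.5, featureCounts 1.5.0-p3 and GRCm38. Strand, treatment of shared reads and annotation release are not given in the sources used here, but all 10 members had the coordinates of GENCODE M21. The study's methods give TPM, yet the column totals differ between mice. FPKM times gene length gave whole multiples of 1 step for 100% of values up to 10000 fragments (tolerance 0.01), and fragments were recovered from it. All columns were mapped to a mouse. At these depths, counting error bears mainly on *Hsd3b7*.

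Log2(FPKM + 1) of the 11083 of 54532 genes whose mean reached 1 FPKM was fitted with limma 3.58.1 in R 4.3.3 (empirical Bayes with trend, two-sided), with all 12 mice in 1 fit and 6 comparisons. The threshold was a Benjamini-Hochberg adjusted p of 0.05 over all genes tested; a log2 fold change over 1 was an alternative. The fit was tested on simulated data. Figures were drawn in matplotlib 3.10.9. The members and lists were chosen with earlier results of these data known. Named genes are all members, up to 6 called genes with the lowest p of each list and comparison described, list genes not measured, and the 3 genes most like 4 members, *Cyp7a1*, *Cyp8b1*, *Cyp27a1* and *Cyp7b1*. *Tf* and *Stard1* were listed under names that matched no deposited gene name. *Stard1* is another name of *Star*, which was listed and matched. Alternatives were TPM, median-ratio size factors, a pseudocount of 0.1, no filter, a filter of 5 FPKM, voom on recovered fragments, only the 2 groups compared, a replicate block, leaving out each mouse and, added after the data had been seen, 2 clock covariates.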

Additional observations from a re-analysis of the deposited data

How the results depend on the processing

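Of 60 member differences 26 were called, and none of these changed direction under any alternative run. Over alternatives that kept every mouse, 248 of 260 repeats of these calls passed again and 12 did not. With 1 mouse left out, 129 of 156 passed again and 27 did not. With a log2 fold change over 1 added to the threshold, the members called were 2 in control against ND, 1 in HYA against control, 2 in HYA against ND and 2 in LA against ND. In HYA against control the count of 3 became 0 with no filter on low values and 0 with only the 2 groups compared, in which more genes were tested or fewer mice fitted, and 7 with *Arntl* and 5 with the clock component as covariates, both chosen after the data had been seen. Leaving out 1 mouse at a time gave 0 to 4 members there, with 0 without control mouse 1 or without HYA-treated mouse 1, 2 or 3. In HYA against LA the count of 0 became 2 with a filter of 5 FPKM, 2 with voom, 3 with only the 2 groups compared and 2 with a replicate block. Voom also called more of all its genes in that comparison, 0.502% higher and 1.64% lower. Shares of all genes called with a changed filter, only 2 groups, a replicate block or 1 mouse left out are not given here. Whether those member counts moved more than the counts over all genes was not tested. The replicate block left 8 members called in control against ND and 3 in HYA against control. Mice with the same number are not stated to be paired: their deviations from the group means correlated at -0.40 to 0.29, over 0.1 in 3 of 18 pairs, and 6 of 12 mice were closest to their own number.

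Differences that changed sign were not called with either sign. The largest after the change was -0.36, for *Cyp7a1* in HYA against control without control mouse 3, beside 0.07 with all mice. *Cyp7a1* in HYA against control was -0.041 with TPM, -0.029 with the clock component and -0.36 to 0.30 with 1 mouse left out, and in LA against control 0.056 with *Arntl*. *Cyp27a1* in LA against control was -0.0031 with voom, -0.024 with *Arntl*, -0.012 with the clock component and -0.14 to 0.10 with 1 mouse left out. *Hsd3b7* in HYA against LA was -0.075 with TPM, -0.11 with voom and -0.11 to 0.25 with 1 mouse left out. *Baat* in HYA against LA was -0.079 with TPM and -0.048 with voom. In LA against control, leaving out 1 mouse gave -0.20 to 0.045 for *Cyp8b1*, -0.093 to 0.30 for *Cyp7b1*, -0.0042 to 0.12 for *Amacr* and -0.076 to 0.14 for *Slc27a5*. Except where the alternative itself changed the genes or mice fitted, the cause was not tested. With 3 mice per group the intervals given for *Cyp7a1* are wide, and the smallest difference that could be detected was not computed. Fragment numbers limit *Hsd3b7*, at 142 to 263 per mouse.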
